A study of Homo sapiens with 12 samples.

Results

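A group of 10 miRNA entries, hsa-miR-1246, hsa-miR-1290, hsa-miR-3195, hsa-miR-7704, hsa-miR-3648, hsa-miR-3687, hsa-miR-4488, hsa-miR-4516, hsa-miR-4508, and hsa-miR-3656, was taken up as late risers that resemble fragments of structural RNA. They are 10 of the 2588 mature miRNAs in the count table, of which 1417 had at least 1 count. The entries were chosen by their changes between 0, 24, and 96 h in these libraries, so their levels and fold changes are given as a description, without p-values. Resemblance to structural RNA was also part of the choice, so the sequence matches are a description too. The name holds for most of them only: miR-3687 fell, and miR-3648 had no more than 2 reads in any library. The cells were A549, a human lung adenocarcinoma line with epithelial morphology, without any genetic change named in the labels, and all groups were the same line. Small RNA was sequenced from cells at 0 h (untreated), 24 h, and 96 h of treatment with TGF-β, the cytokine that drives these cells into the epithelial-to-mesenchymal transition (EMT), with 2 libraries per time point, each of them sequenced in 2 runs.

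A miRNA is a short RNA cut from a hairpin precursor by the nucleases Drosha and Dicer, and its seed, bases 2 to 8 of the mature strand, pairs with target mRNAs. Cells also hold far larger amounts of structural RNA: ribosomal RNA, which is transcribed as 1 long precursor and then cut into the parts of the ribosome, and small nuclear RNA such as U2, a component of the spliceosome. Pieces of these RNAs enter small RNA libraries, and where a miRNA entry has the same letters as a structural RNA, a read cannot be assigned to one of them from its sequence.

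RefSeq's table (GRCh38.p14) held the mature sequence of 6 of the 10 members. They are shown because the resemblance that groups the members lies in these letters; capitals mark the seed.
miR-1246: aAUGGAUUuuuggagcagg
miR-1290: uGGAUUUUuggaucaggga
miR-7704: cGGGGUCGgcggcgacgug
miR-3648: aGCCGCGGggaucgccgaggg
miR-4488: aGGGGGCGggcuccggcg
miR-4516: gGGAGAAGggucggggc
No mature sequence was in the table for miR-3195, miR-3687, miR-4508, and miR-3656. The 6 seeds all differed from each other. miR-1246, miR-1290, miR-7704, and miR-3648 shared their seed with no other mature miRNA of the table, and miR-4516 shared its seed with 1 other measured miRNA, miR-4434, which did not pass the filter on low counts. The members fell into a pair with a GC content of 42.1% each, miR-1246 and miR-1290, and a GC-rich group with 84.2% in miR-7704, 81.0% in miR-3648, 88.9% in miR-4488, and 76.5% in miR-4516.

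The pair of miR-1246 and miR-1290 shared most of its letters. With miR-1290 placed 2 bases downstream, 16 of the 17 overlapping bases were identical, and the single difference was G15U (the base of miR-1246, its position from the 5′ end of miR-1246, then the base of miR-1290). Both lined up with the same stretch of RNU2-6P, an annotated copy of U2 snRNA. miR-1246 was found without a mismatch in 6 of the 70 annotated RNU2 transcripts and with up to 1 mismatch in 18 of them. miR-1290 had no exact copy among them but lay within 1 mismatch in 10. In RNU2-2P, both differed by 4 bases. The copy named RNU2-6P shows both alignments, at chr13:46948615-46948633 for miR-1246 and at chr13:46948613-46948631 for miR-1290 (GRCh37, minus strand); the capital is the mismatch, U13G counted from the 5′ end of miR-1290.
RNU2-6P under miR-1246: aatggatttttggagcagg
RNU2-6P under miR-1290: tggatttttggaGcaggga
No other measured miRNA came as close to U2. Of the 1239 measured miRNAs with a mature sequence, these were the only 2 (0.161%) within 1 mismatch of an RNU2 transcript.

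The GC-rich members were found in ribosomal DNA. A window of 13.3 kb around the 5.8S rRNA was taken from an unplaced contig of GRCh37, in which a run of 61 bases was identical to the annotated transcript RNA5-8SP6. On the sense strand of this window, miR-3648, miR-4488, and miR-4516 each had an exact copy, and miR-7704 had a copy with 1 mismatch, G19C, at its last base. miR-3648 lay 4.09 kb upstream of the 5.8S start, whereas miR-4488 lay 1.91 kb, miR-7704 2.60 kb, and miR-4516 4.45 kb downstream of it. The letters under miR-7704 are shown with the mismatch in capitals.
Ribosomal DNA under miR-7704: cggggtcggcggcgacgtC
Of the measured miRNAs, 10 (0.807%) came within 1 mismatch of the window, and these 4 members were among them. All 6 members with a mature sequence therefore lay within 1 mismatch of an annotated RNU2 transcript or of the ribosomal DNA window. As the members were listed for such a resemblance, nothing is read from these matches or from the shares beside them. The stricter search, for an exact run of at least 15 bases in the 5971 annotated structural RNA transcripts, found miR-1246 alone of the 6, against 2.42% of all measured miRNAs. The annotation used here has no transcripts on the contig with the ribosomal DNA, so the annotated search and the window search cover different sequences.

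For miR-3195 and miR-4508 the hairpin could be compared instead. A stretch of 20 bases in the MIR3195 hairpin differed from the window by 1 base, C4G, and a stretch in the MIR4508 hairpin differed by 2 bases, C2G and C3A, with positions counted from the first base of each stretch. The hairpin is printed above the ribosomal DNA, mismatches in capitals.
MIR3195 hairpin, bases 7 to 26: ccgccgcgccgggcccgggu
Ribosomal DNA under MIR3195: ccgGcgcgccgggcccgggt
MIR4508 hairpin, bases 5 to 24: cccagcggggcugggcgcgc
Ribosomal DNA under MIR4508: cGAagcggggctgggcgcgc
Among the 1560 hairpins of the table, 0.577% had a stretch of this length within 1 mismatch of the window and 1.54% within 2. The MIR3195 hairpin has a GC content of 92.9%. A match of letters is a description and does not show from which RNA a read came, and no match was searched for miR-3687 and miR-3656.

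The annotated precursors were scattered over the genome (GRCh37, GENCODE release 44, or RefSeq hairpins matched to that build), with 1 pair of neighbours. MIR3648 (chr21:9825832-9826011) and MIR3687 (chr21:9826203-9826263) lay on the plus strand of chromosome 21, separated by 191 bases, outside of any other annotated gene. MIR4488 (chr11:61276068-61276129, plus strand) and MIR4508 (chr15:23807209-23807278, minus strand) overlapped no other gene either. In introns lay 3 precursors: MIR1246 (chr2:177465708-177465780, minus strand) opposite to the lncRNA LINC01117, MIR1290 (chr1:19223565-19223642, minus strand) in the sense direction of ALDH4A1, and MIR4516 (chr16:2183120-2183205, plus strand) opposite to PKD1. In coding exons lay a further 3: MIR3195 (chr20:60639858-60639941, plus strand) opposite to TAF4, MIR7704 (chr2:177053571-177053629, plus strand) in the sense direction of HOXD1, and MIR3656 (chr11:118889654-118889722, plus strand) in the sense direction of TRAPPC4. The precursor position is where the annotation puts the entry. The mature sequence of miR-1246 had 7 exact copies in the genome, that of miR-4488 4, those of miR-3648 and miR-4516 3 each, that of miR-1290 2, and that of miR-7704 1, against a median of 1 copy over all measured miRNAs, of which 2.42% had more than 5.

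The libraries held between 2335185 and 5971197 counts on mature miRNAs, and both 96 h libraries were deeper than all others. Levels are given as TMM-normalized CPM, counts scaled to a common total after a correction of edgeR for composition whose factors ran from 0.738 to 1.36 and were lowest at 96 h. The listed epithelial miRNAs ranged in sum from 167 to 208 CPM of the total count over the libraries. This sum is not TMM-normalized, and the listed miRNAs went both ways. With TMM, the log2-fold changes at 96 h against 0 h were 1.60 for miR-200b-3p, 0.81 for miR-200a-3p, and 0.20 for miR-429. They were −0.03 for miR-200c-3p, −0.19 for miR-375, and −1.14 for miR-141-3p, while miR-205-5p had at most 3 reads in a library. Of the 6 listed blood miRNAs, 2 were at 0 throughout, and the others summed to at most 6.51 CPM. Of the 5 listed fibroblast miRNAs, miR-214-3p was at 0 in all libraries while the sum rose from 7.33 and 10.3 CPM in the untreated libraries to 309 and 358 CPM at 96 h, almost all of it miR-143-3p. At 24 h the fibroblast sum was at 105.7 and 106.4 CPM. The mean summed share of the members, most of it miR-1246 and miR-1290, was 0.00945% at 0 h and 0.00774% at 24 h. At 24 h, miR-3195, miR-7704, and miR-4516 were above both 0 h libraries, and miR-1246 and miR-3687 were below both. The part of the fibroblast miRNAs in the members' rise at 96 h was not tested.

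miR-1246 and miR-1290, the U2-like pair, rose at 96 h and were not higher at 24 h. miR-1246 was at 45.4 and 59.98 CPM at 0 h, 42.1 and 42.2 CPM at 24 h, and 380 and 344 CPM at 96 h. The 24 h libraries were a little below both untreated ones, and both 96 h libraries stood far above the other 4. In such bulk libraries, a change in the number of cells with an RNA and a change in its amount per cell cannot be told apart. In counts these were 124, 201, 113, 138, 1673, and 1269 reads, and miR-1246 moved from ranks 177 to 207 of all miRNAs by count in the earlier libraries to ranks 92 and 93 at 96 h. The log2-fold change was 2.77 ± 0.18 (SE) at 96 h against 0 h, −0.33 ± 0.19 at 24 h against 0 h, and between 24 h and 96 h it was 3.10 ± 0.19. miR-1290 was at 3.66 and 8.06 CPM at 0 h, 7.44 and 5.81 CPM at 24 h, and 114 and 107 CPM at 96 h. The 0 and 24 h libraries overlapped, and the 96 h libraries did not overlap with either. Its log2-fold change was 4.20 ± 0.30 at 96 h against 0 h, 0.13 ± 0.38 at 24 h against 0 h, and between 24 h and 96 h it was 4.07 ± 0.30. The change at 96 h against 0 h ran from 3.82, with the first 0 h library left out, to 4.92, with the second left out, and the small change at 24 h turned its sign without 0 h replicate 1 (−0.26) or 24 h replicate 1 (−0.01). Fold changes at 24 h and at 96 h share the same 0 h libraries and are set side by side only.

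**Figure D1:**
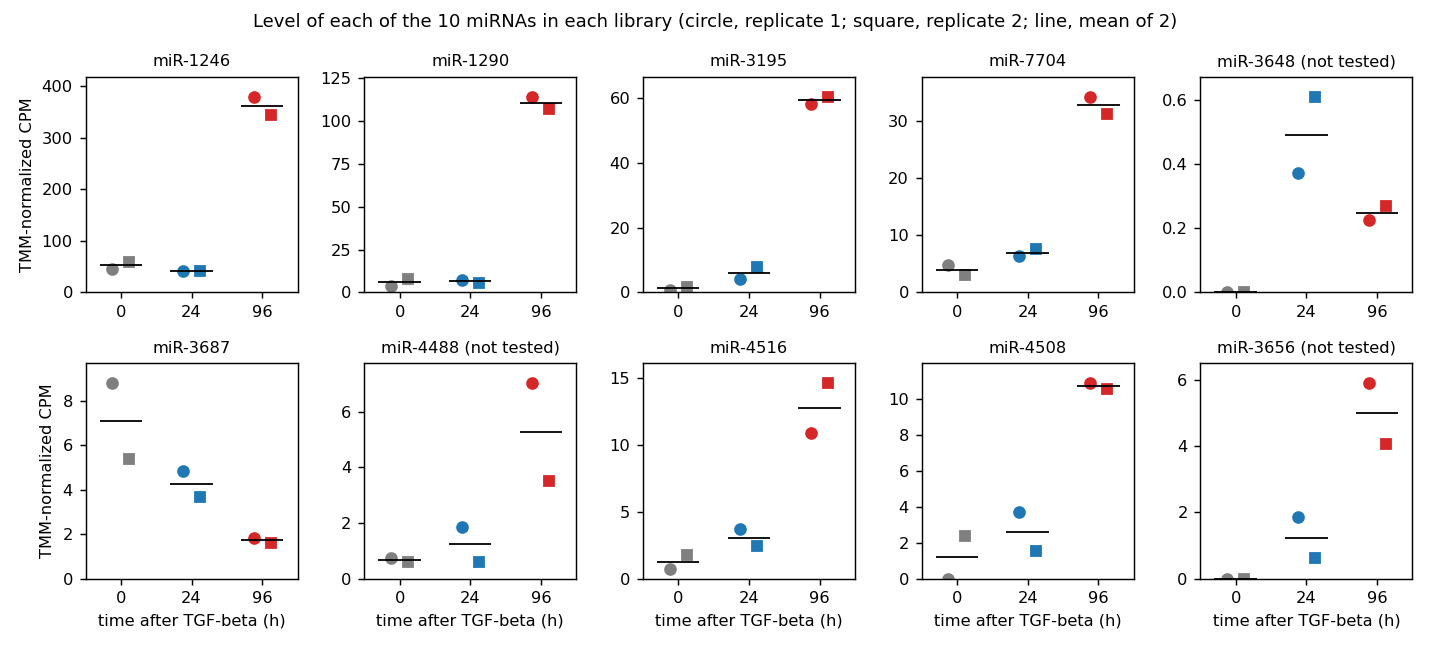
TMM-normalized CPM (linear axes from 0, one scale per panel) of each of the 10 miRNAs at 0, 24, and 96 h of TGF-β. Circles are replicate 1, squares replicate 2, and lines the mean of the 2 libraries; 8 of the panels have their highest points at 96 h, while miR-3687 is lowest there and miR-3648 never exceeds 0.612 CPM.

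Among the GC-rich members, miR-3195 and miR-7704 had the most reads. miR-3195 was at 0.733 and 1.79 CPM at 0 h, 4.09 and 7.95 CPM at 24 h, and 58.3 and 60.5 CPM at 96 h. Each time point lay above the one before it without overlap, so that miR-3195 differed from the U2-like pair by a level at 24 h that was already above both untreated libraries. The log2-fold change was 5.46 ± 0.40 at 96 h against 0 h, 2.20 ± 0.52 at 24 h against 0 h, and between 24 h and 96 h it was 3.26 ± 0.31. The change at 24 h passed the threshold, ran from 1.57 without 24 h replicate 2 to 3.02 without 0 h replicate 2, and lost its call without either 24 h library. The 0 h level rested on 2 and 6 reads, and the log2-fold change at 96 h against 0 h ran from 5.07 without 0 h replicate 1 to 6.28 without 0 h replicate 2. miR-7704, whose precursor lies in the HOXD cluster, was at 4.76 and 2.98 CPM at 0 h, 6.33 and 7.65 CPM at 24 h, and 34.3 and 31.2 CPM at 96 h. Its 24 h libraries lay above those at 0 h but did not pass the threshold, with a log2-fold change of 0.88 ± 0.37, whereas the change was 3.09 ± 0.32 at 96 h against 0 h and 2.21 ± 0.29 when 96 h was compared with 24 h.

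miR-4516 and miR-4508 had fewer reads and were highest in both 96 h libraries. miR-4516 was at 0.733 and 1.79 CPM at 0 h, 3.72 and 2.45 CPM at 24 h, and 10.9 and 14.6 CPM at 96 h. The time points did not overlap, and the log2-fold change was 3.25 ± 0.51 at 96 h against 0 h, 1.20 ± 0.63 at 24 h against 0 h, and between 24 h and 96 h it was 2.05 ± 0.44. Without 0 h replicate 2, the changes against 0 h were 4.06 at 96 h and 2.01 at 24 h. The change from 24 h to 96 h passed the threshold with all 6 libraries and not when any of the 4 libraries compared was left out. miR-4508 was at 0 and 2.39 CPM at 0 h, 3.72 and 1.53 CPM at 24 h, and 10.9 and 10.6 CPM at 96 h, from 0, 8, 10, 5, 48, and 39 reads. The 96 h libraries were above the others, and the 0 and 24 h libraries overlapped. The log2-fold change at 96 h against 0 h was 3.02 ± 0.72 and depended on which 0 h library was used. It was 2.20 without replicate 1. Against replicate 1 alone, which had no read, the level at 96 h was at least 9.77-fold higher than the limit of 3 counts. At 96 h against 24 h, the log2-fold change of 2.06 ± 0.65 did not pass the threshold.

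Of the members on few reads, miR-4488 and miR-3656 were highest at 96 h, and miR-3648 stayed near 0. None of the 3 passed the filter on low counts, so they were not tested. miR-4488 was at 0.733 and 0.597 CPM at 0 h, 1.86 and 0.612 CPM at 24 h, and 7.03 and 3.53 CPM at 96 h, from 31 and 13 reads at 96 h against 2 reads in each 0 h library. miR-3656 had no read at 0 h, was at 1.86 and 0.612 CPM at 24 h, and reached 5.90 and 4.07 CPM at 96 h, at least 5.0-fold higher than the limit that 3 counts per library set at 0 h. Both were above their other libraries at 96 h without overlap. The untreated libraries had no read of miR-3648, those at 24 h had 1 and 2 reads, and those at 96 h had 1 read each. At this depth no change of miR-3648 was detectable, and no fold is given.

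miR-3687 moved in the other direction. It was at 8.79 and 5.37 CPM at 0 h, 4.84 and 3.67 CPM at 24 h, and 1.82 and 1.63 CPM at 96 h, from 24, 18, 13, 12, 8, and 6 reads. Each time point lay below the one before it without overlap. The log2-fold change was −2.0 ± 0.51 at 96 h against 0 h, which passed the threshold, −0.73 ± 0.47 at 24 h against 0 h, and between 24 h and 96 h it was −1.27 ± 0.54. The call at 96 h was lost, with the same sign, without 0 h replicate 1 (−1.57), 96 h replicate 1 (−2.05), or 96 h replicate 2 (−1.88), and with all libraries thinned to the depth of the smallest (−1.26). Its neighbour on chromosome 21, miR-3648, had too few reads to be compared with it.

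With all miRNAs tested in one fit, 7 of the 10 members passed the filter on low counts. A miRNA was called at an adjusted p under 0.05 (edgeR's quasi-likelihood F-test, Benjamini-Hochberg) and an absolute log2-fold change above 1. At 96 h against 0 h, 6 of the 7 were called higher (miR-1246, miR-1290, miR-3195, miR-7704, miR-4516, miR-4508), against 12.6% of the 491 miRNAs tested, and 1, miR-3687, was called lower, against 13.2%. At 24 h against 0 h, 1 of the 7, miR-3195, was called higher, against 1.22%; this call was lost without either 24 h library, with thinned libraries, and with only the 0 and 24 h libraries in the fit. At 96 h against 24 h, 5 of the 7 were called higher, against 3.67%. By the ranges of the libraries, 6 of the 7 lay above 0 h at 96 h without overlap (33% of all tested) and 1 below (38.7%). At 24 h, 3 lay above 0 h (29.3%) and 2 below (28.5%). Against 24 h, the 96 h libraries lay above for 6 (30.3%) and below for 1 (31.6%), while no member was called lower in the comparisons with 24 h libraries (2.24% of all tested in each of them). As the members were picked for these contrasts and those with few reads could pass the filter only where they were high, nothing is read from these counts. The median log2-fold change of the 7 was 3.09 at 96 h against 0 h, 0.88 at 24 h against 0 h, and between 24 h and 96 h it was 2.21, and that of all tested miRNAs was −0.10, −0.00, and −0.05. The smallest change among the 6 was that of miR-1246, and the 6 held ranks 2 and 5 to 9 among the 62 miRNAs called higher at 96 h. With libraries scaled to their total counts, which moved the median of all miRNAs at 96 h against 0 h to −0.83, the same 6 were called among 23. With the libraries thinned to the smallest, they were again called, among 53.

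**Figure D2:**
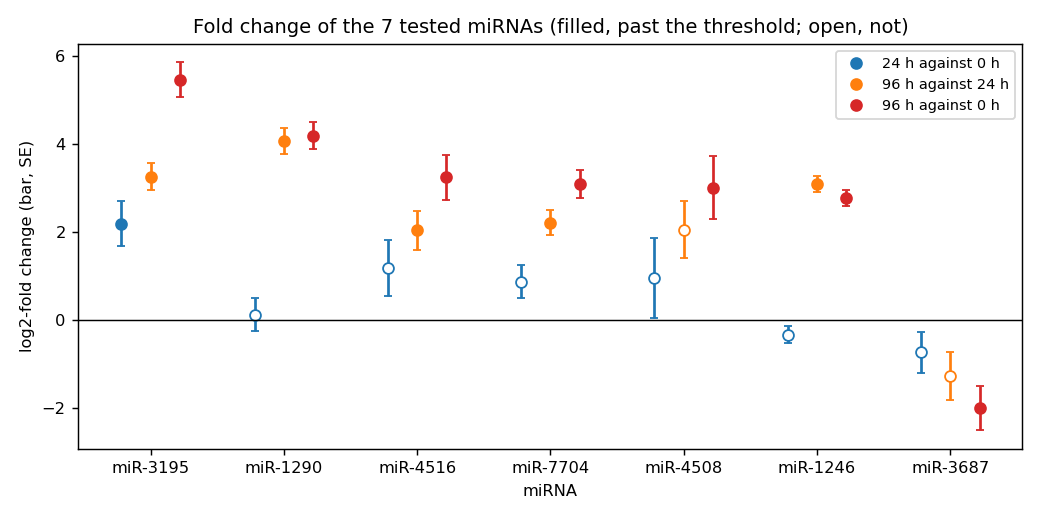
Log2-fold change (vertical axis; bars are SE) of the 7 tested miRNAs at 24 h against 0 h (blue), 96 h against 24 h (orange), and 96 h against 0 h (red). Filled points passed the threshold and open points did not. At 24 h against 0 h only miR-3195 has a filled point, and miR-3687 is below 0 in all 3 comparisons.

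Since each library was sequenced in 2 runs, the counts of each run could be recovered for 5 libraries, all but 96 h replicate 2, from the counts and the authors' scaled values. For 7 of the 10 members, both runs of 96 h replicate 1 were above all 8 runs of the 0 and 24 h libraries. The share of all miRNAs with such runs was not computed, and the members were picked for their changes at these times. Nothing is read from this count, which rests on a single library at 96 h. miR-1246 was at 256 and 276 CPM of a run's total in the 2 runs at 96 h and at most at 98.3 in the earlier runs, and miR-1290 was at 77.2 and 83.3 against at most 12.5. miR-4508 was at 7.50 and 7.52 at 96 h, and 1 run of 24 h replicate 1 reached 7.60. The runs at 96 h lay close together for these 3 miRNAs. Those of miR-4516, at 8.79 and 4.05 (41 and 7 reads), and of miR-3656, at 4.72 and 2.31 (22 and 4 reads), lay further apart. The 95% Wilson intervals of the 2 runs overlapped for both. They were 6.48 to 11.9 and 1.96 to 8.35 for miR-4516, and 3.11 to 7.14 and 0.9 to 5.95 for miR-3656. For miR-1246, the runs of 0 h replicate 2 did not lie close together. The deeper run had 150 reads, 98.3 CPM (95% Wilson interval 83.8 to 115), and the shallower run 51 reads, 43.2 CPM (32.9 to 56.8). These intervals do not overlap and cover counting error only, and the labels' run dates could not be assigned to the runs. By the labels, all libraries shared the date of a run. The date of the other run was the same in both 96 h libraries and differed from that of both 24 h libraries. Its effect cannot be told apart from time in that comparison, and the 0 h libraries had either date.

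The balance between members also changed, which can be seen within each library without any normalization. The count of miR-1246 was 12.4 and 7.44 times that of miR-1290 at 0 h, 5.65 and 7.26 times at 24 h, and 3.32 and 3.20 times at 96 h. The ratio was thus lowest in both 96 h libraries. At 0 and 24 h it rested on 10, 27, 20, and 19 reads of miR-1290, and the cause of its change was not tested. The ratio of miR-1246 to miR-7704 was lowest in both 24 h libraries and overlapped between 0 h and 96 h, with 9.54 and 20.1 in the untreated libraries, 6.65 and 5.52 after 24 h, and 11.1 and 11.03 after 96 h. Its ratio to miR-3195 fell from 62.0 and 33.5 at 0 h to 10.3 and 5.31 at 24 h and was 6.51 and 5.69 at 96 h. Against miR-3687, the ratio was between 5.17 and 11.5 at 0 and 24 h and was 209 and 212 at 96 h. With 2 libraries per time point an exact permutation test of such a ratio cannot fall below p = 0.333, and none was run.

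**Figure D3:**
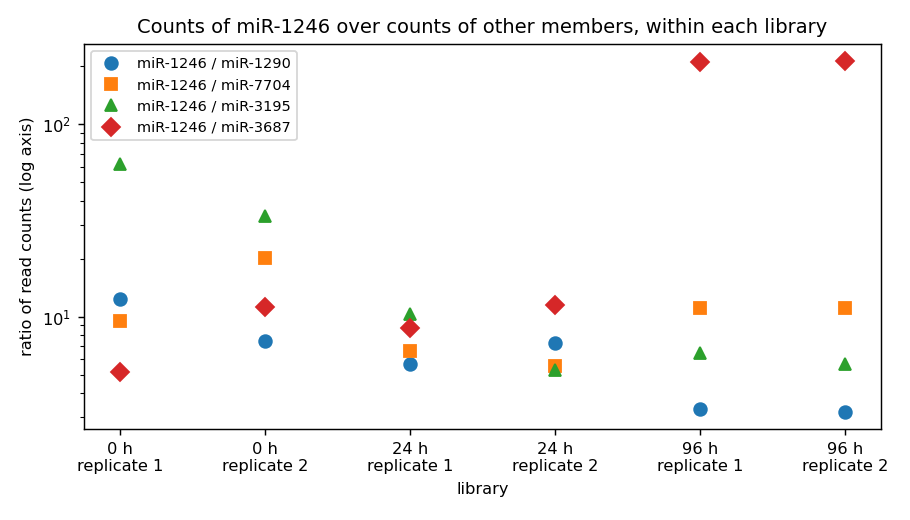
Read count of miR-1246 divided by that of miR-1290, miR-7704, miR-3195, and miR-3687 (logarithmic axis) in each of the 6 libraries. The ratio to miR-1290 is lowest in both 96 h libraries (3.32 and 3.20) and the ratio to miR-3687 is highest there (209 and 212).

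Together the 10 members took a small part of each library, 0.00945% ± 0.00264 (SD, n = 2) of all mature miRNA counts before treatment, 0.00774% ± 0.00044 after 24 h, and 0.0459% ± 0.00019 after 96 h. The libraries ranged from 0.00744% (95% Wilson interval 0.00655 to 0.00844, for counting error only) in 24 h replicate 2 to 0.0460% (0.0443 to 0.0478) in 96 h replicate 1. miR-1246 and miR-1290 made up between 64.9% and 82.0% of the members' counts in each library, and 79.3% and 78.1% at 96 h.

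Other miRNAs with the same sequence features did not share one direction. Besides the 4 members, 6 measured miRNAs lay within 1 mismatch of the ribosomal DNA window. miR-4492, with its copy 4.25 kb downstream of the 5.8S start and so near that of miR-4516, had 1, 2, 3, 1, 17, and 12 reads over the libraries from 0 to 96 h, highest at 96 h, and was not tested. miR-4497, at 2.04 kb and so near miR-4488, was at 6.23 and 4.18 CPM at 0 h, 3.35 and 2.75 CPM at 24 h, and 9.08 and 11.1 CPM at 96 h, with a log2-fold change of 0.96 at 96 h against 0 h that was not called. miR-1268a, at 6.50 kb, went from 104 and 75.2 CPM at 0 h to 27.0 and 26.0 CPM at 96 h and was called lower, with a log2-fold change of −1.75. miR-1268b, which differs little from it so that their reads cannot be told apart, had the same fold change. miR-663a and miR-663b, both upstream, had 1 read each in all libraries together.

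**Figure D4:**
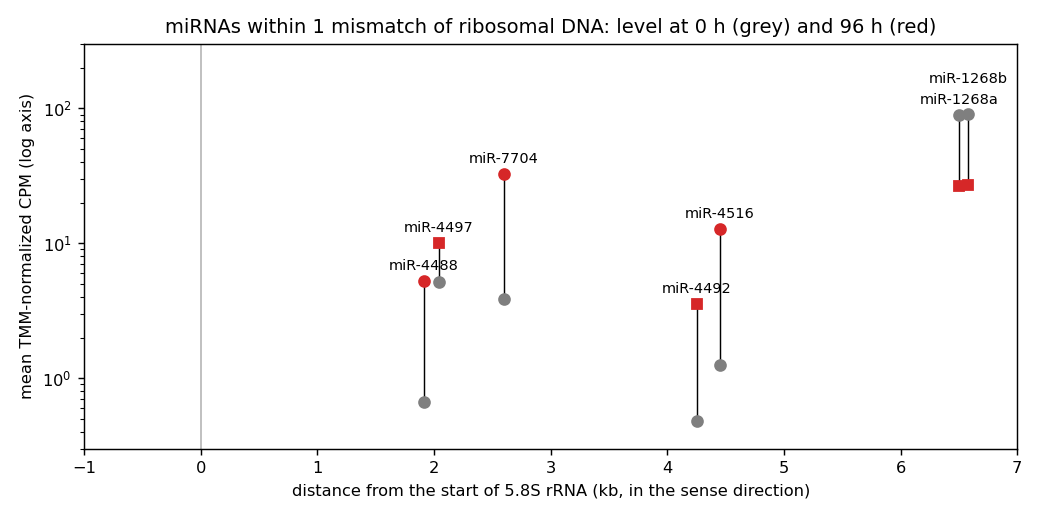
Mean TMM-normalized CPM (logarithmic axis) at 0 h (grey) and 96 h (red; circles are members, squares other miRNAs) of miRNAs within 1 mismatch of ribosomal DNA, by the distance of their copy from the 5.8S start in kb. Entries with 10 reads or fewer in all are left out; miR-4488, miR-7704, and miR-4516 are higher at 96 h, and miR-1268a and miR-1268b at 6.50 kb are lower.

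Other miRNAs of high GC content moved in both directions. Of the 33 other measured miRNAs with a GC content of at least 80%, 21 had at most 10 reads in all and 4 were tested. Of these 4, 0 were called higher and 2, miR-1268a and miR-1268b, lower at 96 h against 0 h; their median log2-fold change was −1.51, and the reads of miR-1268a and miR-1268b cannot be told apart. The 2 others were miR-4497, given above, and miR-940 (−1.26, not called). Among those not tested, miR-4449 had 0, 1, 1, 2, 10, and 10 reads over the libraries from 0 to 96 h, and miR-3196 had 3, 3, 1, 0, 21, and 5. Likewise miR-4787-5p had 2, 2, 4, 4, 7, and 11 reads and miR-4492, given above, had most of its reads at 96 h, where the libraries were also deeper. Other untested entries had fewer reads at 96 h than at 0 h. Among them, miR-4787-3p had 6, 6, 2, 0, 0, and 3, and miR-1915-3p had 5, 1, 0, 0, 0, and 0. In the same way miR-1908-3p had 4, 4, 1, 0, 2, and 3, and miR-4466 had 3, 1, 3, 1, 0, and 0. Among tested miRNAs with 60% to under 80% GC, members apart, the median was −0.71 over 65 miRNAs, with 2 called higher and 18 lower, and below 40% it was 0.16 over 100, with 20 higher and 6 lower. From 40% to under 60%, the range of miR-1246 and miR-1290, it was 0.05 over 261, with 30 higher and 30 lower.

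**Figure D5:**
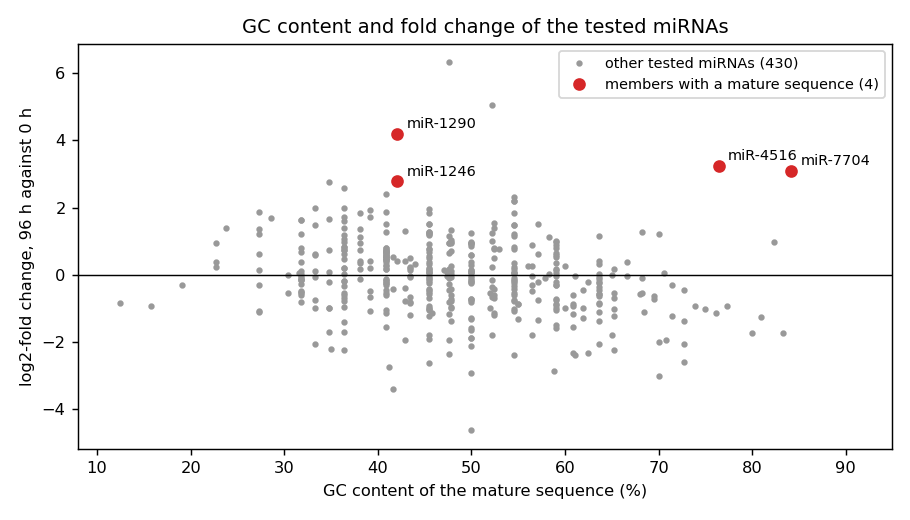
Log2-fold change at 96 h against 0 h of the tested miRNAs with a mature sequence by the GC content of that sequence in %. Of the 7 tested members, the 4 with a mature sequence (red) are all above 2.7. The others, miR-3195, miR-4508, and miR-3687, which fell, are not shown. Among the red points only miR-7704 has at least 80% GC, and the other tested miRNAs with at least 80% GC (grey) lie below 1.

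Short miRNAs outside the group went both ways. The mature strands of miR-1246, miR-1290, and miR-7704 have 19 bases and that of miR-4516 has 17, against a median of 22 over the tested miRNAs. Of the 17 other tested miRNAs of at most 19 bases, 1 was called higher at 96 h against 0 h, miR-4791, and 4 were called lower. Their median log2-fold change was −0.04. Of all 491 tested miRNAs, 12.6% were called higher and 13.2% lower, and nothing is read from the counts of the short ones.

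Entries that resemble other structural RNAs were compared with the members. Of 11 entries within or like snoRNA, the guides of RNA modification, 2 were tested. miR-664a-3p was at 5.86 and 3.58 CPM at 0 h, 12.6 and 9.79 CPM at 24 h, and 16.1 and 19.3 CPM at 96 h, and was called higher at 96 h against 0 h with a log2-fold change of 1.92 ± 0.35. miR-1291 was not called (1.12 ± 0.80), and the median of these was 1.52. Of 10 entries like tRNA or mitochondrial RNA, 5 were tested, 0 were called higher and 1 lower, and the median was −0.04. The lower one was miR-7977, at 8.43 and 9.85 CPM at 0 h and 2.04 and 1.36 CPM at 96 h (−2.39 ± 0.46). miR-1260b and miR-1260a, the entries with the most reads among them, had log2-fold changes of −0.11 ± 0.21 and −0.04 ± 0.21.

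The miRNAs whose course over the 6 libraries was most like that of miR-1246 were miR-1290 (Pearson's r = 0.986 of log2 CPM), miR-146a-5p (0.971), and miR-127-3p (0.966), out of 490 compared. miR-146a-5p went from 793 and 966 CPM at 0 h to 1297 and 1270 CPM at 96 h, and miR-127-3p from 1014 and 1064 to 2019 and 2160 CPM. Likeness here is in the order and spacing of the libraries on the log scale and not in the size of the change. Of the other members, miR-7704 ranked at 17, miR-3195 at 24, miR-4516 at 26, miR-4508 at 52, and miR-3687 at 463 with r = −0.868. These correlations rest on 3 time points with 2 libraries each that share their depth and normalization, and are a description only.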

How the data were processed

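Small RNA of A549 cells, untreated or after 24 or 96 h with TGF-β, was sequenced by the authors on an Illumina HiSeq (small RNA kit), 2 libraries per time point and 12 runs in all, and counted with miRDeep2; the miRNA reference set is not given in the sources used here, and the submitters' processing notes list hg19 and FastQC. The authors deposited counts per mature miRNA and precursor, both runs of a library summed and not normalized. They also deposited scaled values, a signal in which each run was scaled to the same total and both were added; 1 column repeats another and was not used. Run counts were solved from both tables, and between 96.3% and 99.5% of entries above 0 came out whole within 0.1 reads.

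For each name the row with the highest total was used (170 of 2588 names have several rows; miR-3648 and miR-3687 have 2 identical rows each). Counts were analysed with edgeR 4.0.16 in R 4.3.3: TMM, filterByExpr (minimum count 10), one quasi-likelihood fit over 6 libraries, Benjamini-Hochberg over all tested; the procedure was tested on simulated data. Nothing states that the libraries came from separate cultures, so the spread may be technical. Sequences came from RefSeq (GRCh38.p14; 1239 of 1417 measured names matched, 87.4%) and positions from GRCh37 with GENCODE release 44. The ribosomal DNA window reached 6600 bases upstream and 6700 downstream of the 5.8S start. Intervals and limits (3 counts for a 0) cover counting error only, as reads carry no molecular identifiers. The members and lists were chosen with earlier results of these data known. Named miRNAs were the members, lists of snoRNA-like, tRNA-like, and GC-rich entries (called entries, or the 2 most abundant), and the 3 most like miR-1246. The other entries within 1 mismatch of ribosomal DNA, the GC-rich entries that were not called, the windows, GC and length groups, and the run split were added after values had been seen.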

Additional observations from a re-analysis of the deposited data

Results flagged for a closer look

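The levels at 96 h differed from those at 24 h for 5 members by edgeR's quasi-likelihood F-test across all tested miRNAs, which is a comparison the members were picked for and so no independent result. The log2-fold change at 96 h against 24 h was 4.07 for miR-1290, 3.26 for miR-3195, 3.10 for miR-1246, 2.21 for miR-7704, and 2.05 for miR-4516, each with both 96 h libraries above both 24 h libraries. The call of miR-4516 was lost without any one of these 4 libraries. Groups of 2 libraries allow no search for single outlying libraries.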

How the results depend on the processing

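The 6 members called higher at 96 h against 0 h were all called in every alternative except a mean of at least 10 CPM, which kept miR-1246, miR-1290, miR-3195, and miR-7704 and left miR-4508 and miR-4516 out of the test (4 called); the count went up to 8 with no expression filter, and leaving out single libraries gave 6 to 8. At 24 h against 0 h, the single call, miR-3195, was lost (0 called) with thinned libraries, with only the libraries of both time points, and without either 24 h library (0 to 1 on leaving out libraries). At 96 h against 24 h, 8 were called with no expression filter and 8 with only the libraries of both time points, where miR-4488, miR-3656, and miR-4508 were added, and leaving out single libraries gave 4 to 4. The log2-fold change of miR-1290 at 24 h against 0 h, 0.13 and not called, turned to −0.18 with total counts, −0.061 with total counts without miR-21-5p, −0.26 on leaving out the first 0 h library, and −0.01 on leaving out the first 24 h one, and on leaving out single libraries it ran from −0.26 to 0.85. The share of counts on the members at 96 h was 0.0428% with rows of a name summed and 0.0601% with TMM library sizes; leaving out a library gave 0.00758 to 0.0113% at 0 h, 0.00744 to 0.00805% at 24 h, and 0.0457 to 0.0460% at 96 h. The search of the RNU2 transcripts and the ribosomal DNA window with up to 1 mismatch, chosen after seeing the data, found 6 members, against 1 with an exact run of 15, 13, or 17 bases in annotated transcripts; it changed the sequences searched as well as the mismatches allowed, and 3 of the 6 matched the window without a mismatch. The cause of these differences was not tested.

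The deviations of same-numbered libraries from the mean of their time point had correlations of −0.301 (0 h and 24 h), 0.312 (0 h and 96 h), and −0.184 (24 h and 96 h). As the deviations of the 2 libraries of a time point mirror each other, these values cannot decide whether the numbers pair the libraries. With the replicate block, 6, 1, and 6 members were called at 96 h against 0 h, 24 h against 0 h, and 96 h against 24 h, where miR-4508 was added. Of the alternatives for single members, 262 kept direction and side of the threshold, 12 lost the call, 5 gained it, and 4 changed sign. Members with under 10 reads per library at 0 h (miR-3195, miR-4516, miR-4508, miR-4488, miR-3656, miR-3648) have the least certain folds.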
